A study of Sus scrofa with 8 samples.

Results

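The WNT target and stem cell genes described here are LGR5, LGR6, AXIN2, LEF1, TCF7, NOTUM, ASCL2, ZNRF3 and MYC. They were chosen by name, with earlier results of these data known, as 9 of the 30282 pig genes in a table of estimated read counts. The rows of each gene were summed. The data are bulk RNA-Seq libraries of porcine pancreatic ductal organoids (PPDO), which are organoids grown in basement membrane matrix from hand-picked ducts of the pig pancreas. Each of 4 PPDO lines was cultured for a week in complete medium and in differentiation medium, so that there are 8 libraries and n = 4 lines per medium. The donor pancreas was embryonic for the Em line, late postnatal for LPN and early postnatal for the lines EPN1 and EPN2. Complete medium contained WNT3a, R-spondin1 and noggin, FGF10, EGF, gastrin and prostaglandin E2. For maintaining PPDO, the paper replaced purified WNT3a, R-spondin1 and noggin by a conditioned medium supplement (L-WRN), so that the media may also differ in its other components. Differentiation medium lacked all of these factors, and both media shared N2, B27, nicotinamide, N-acetylcysteine, the TGF-beta receptor inhibitor A83-01 and the ROCK inhibitor Y-27632. Each line stands for 1 culture per medium, and Em and LPN are each the only line of their stage, so that stage and line cannot be told apart. The factors were withdrawn together, so that the effect of WNT3a and R-spondin1 cannot be told apart from that of the others. Cultures in both media were collected after a week, so that before and after withdrawal stand below for complete and differentiation medium, not for time points.

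In canonical WNT signalling, a WNT ligand binds Frizzled and LRP receptors and keeps beta-catenin from being degraded, and beta-catenin then activates genes together with TCF and LEF proteins on DNA. LGR receptors bind R-spondins, which removes the ligases ZNRF3 and RNF43 from the cell surface and so keeps the WNT receptors there. Several target genes code for inhibitors of the same pathway, which makes a negative feedback loop. LGR5 and ASCL2 mark WNT-dependent stem cells of the intestinal crypt, and ductal organoids of the pancreas are grown with WNT ligands and R-spondin.

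All 9 genes are annotated as protein-coding in RefSeq on the Sscrofa11.1 build of the pig genome, and the values below cover whole genes. The receptor genes LGR5 and LGR6 lie at chr5:35463257-35595234 and chr10:24358946-24454430. TCF7 lies at chr2:136422740-136456323 and LEF1 at chr8:113824511-113944078. The feedback inhibitors AXIN2 and NOTUM are both on chromosome 12, at chr12:12311293-12343207 and chr12:1033814-1044412, and ZNRF3 lies at chr14:46092000-46241327. The transcription factor genes ASCL2 and MYC lie at chr2:1558459-1560112 and chr4:12455141-12460360.

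Library totals ranged from 40553593 to 47910657 counts, and levels are given as counts relative to the library size (CPM), with TMM factors of 0.936 to 1.06. The limit that a count of 0 allows, 3 counts, corresponded to 0.0626 to 0.0740 CPM, and intervals on counts cover counting error only. The duct markers KRT7, KRT8, EPCAM and CDH1 were high in all 8 libraries, and none of the 9 duct markers tested passed the threshold with the medium as the only term. Blocked on line, CDH1 (edgeR log2 fold change 1.11, adjusted p = 0.0173) and ONECUT1 (2.98, adjusted p = 0.0145) were higher in differentiation medium. EPCAM, an epithelial adhesion molecule, averaged 441 ± 96.4 CPM before and 448 ± 194 CPM after withdrawal (SD, n = 4). Duct markers were not uniform between lines. KRT7, KRT8 and KRT18 were higher in differentiation medium in Em and EPN1 and lower in LPN and EPN2. In EPN2 they went from 1933, 2269 and 375 CPM to 522, 425 and 45.2 CPM, and EPCAM from 341 to 228 CPM. CFTR went from 85.1 to 2.96 CPM in EPN2 and from 7.67 to 25.1 CPM in LPN, and ONECUT1 was at 0.117 CPM or less in EPN2. Differences between media were tested in edgeR (quasi-likelihood) with the medium as the only term, and a gene was called at a Benjamini-Hochberg adjusted p-value under 0.05. Of the 14475 genes tested, 1009 were called (6.97%), 593 of them lower and 416 higher (2.87%). The p-values measure the spread between the 4 lines, which differ in animal and stage.

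Withdrawal of the growth factors went with lower expression of the WNT target and stem cell genes. All 9 genes passed the expression filter and all 9 were lower in differentiation medium in 4 of 4 lines, against 24.2% of all genes tested, although MYC in EPN1 differed by less than counting error. The R-spondin receptor genes LGR5 and LGR6, the nuclear factor genes TCF7 and LEF1 and the inhibitor gene NOTUM fell past the threshold, which makes 5 of 9, whereas 4.1% of all genes tested were called lower. AXIN2, ASCL2, ZNRF3 and MYC did not pass it. The median log2 fold change of the 9 genes was -3.31, and that of all genes tested was 0.01. The log2 fold change was -2 or less for 6 of the 9, against 3.1% of all genes tested. For 6 of the 9, every library in differentiation medium was below every library in complete medium, which held for 9.96% of all genes tested, and the media overlapped for ASCL2, ZNRF3 and MYC. As the 9 were chosen with earlier results of these data known, these shares describe them and are no test of the set.

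**Figure D1:**
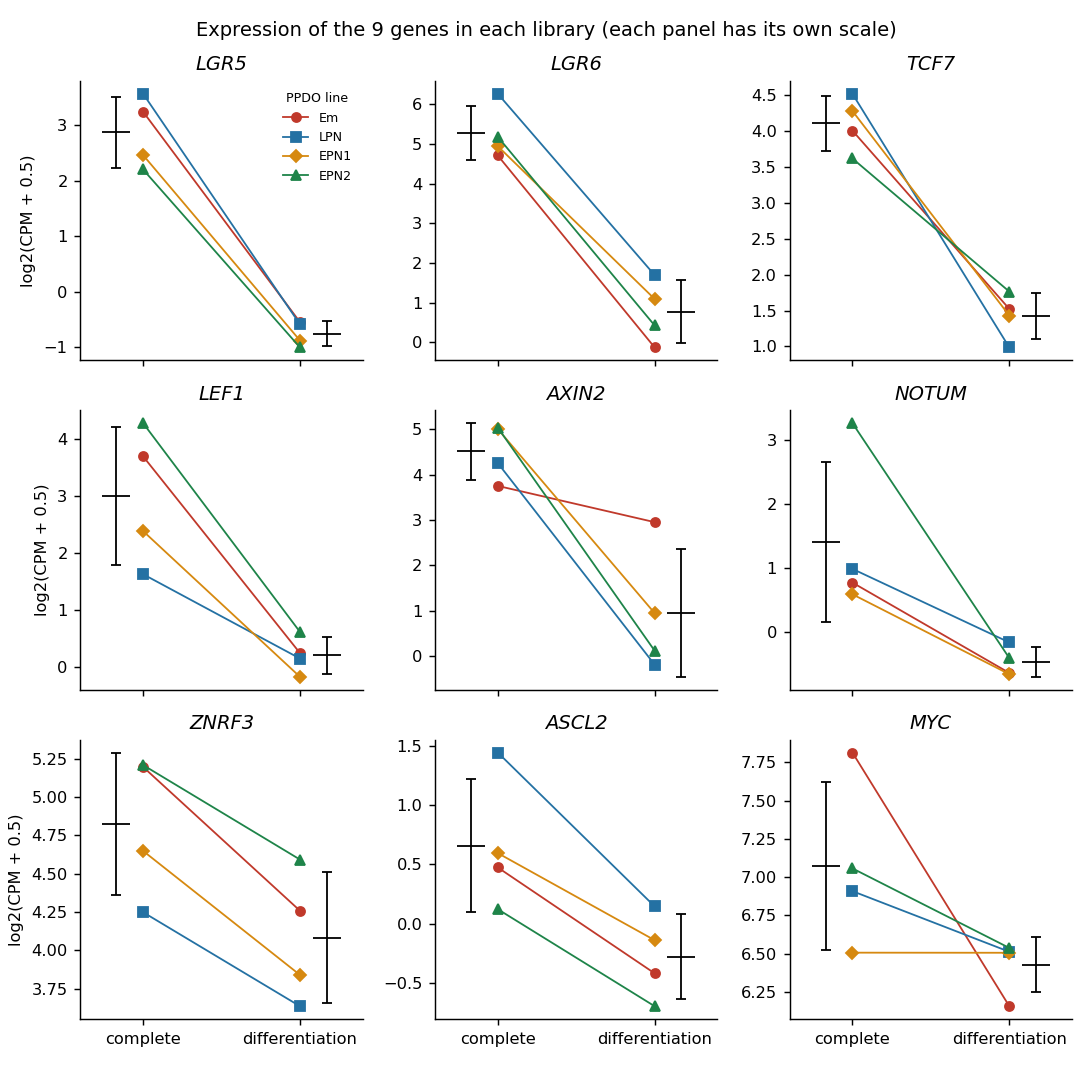
Expression of each gene in log2(CPM + 0.5) on the vertical axis, in complete and in differentiation medium, with 1 point per library, points of the same PPDO line joined, and the mean ± SD of the 4 lines in black beside them. LGR5, LGR6, TCF7 and LEF1 drop in every line, AXIN2 drops least in Em, to 7.24 CPM, NOTUM starts highest in EPN2 at 9.11 CPM, and MYC in EPN1 is at 90.4 CPM in both media.

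The receptor genes LGR5 and LGR6 had the largest fitted decreases of the 9. Within LPN, EPN1 and EPN2, AXIN2 fell more than LGR6, by 49.6, 22.2 and 55.5 times against 28.1, 18.6 and 42.7, with overlapping intervals on counts. In Em, AXIN2 fell by 1.79 times and LGR6 by 62.4. LGR5, the R-spondin receptor that marks intestinal stem cells, was at 8.99 CPM in Em, 11.4 in LPN, 5.02 in EPN1 and 4.11 in EPN2 in complete medium. In differentiation medium it was at 0.186, 0.167 and 0.0452 CPM in Em, LPN and EPN1 and listed at 0 in EPN2. The transcript was thus close to the limit of detection in every line after withdrawal, with 9, 8, 2 and 0 counts against 415, 467, 209 and 182 before it. LGR5 fell by 6.15 on the log2 scale (SE 0.93, edgeR adjusted p = 0.0158), and 0.0967% of all genes tested had a lower log2 fold change. Within lines, LGR5 was 48.4 times lower in Em (95% interval on counts 25.3 to 107) and 68.2 times lower in LPN (34.3 to 159). In EPN1 the ratio was 111 with an interval of 30.4 to 923, and in EPN2 LGR5 was at least 58.7-fold lower when the 0 is set to 3 counts in that library. The intervals of the lines overlap.

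LGR6, a second receptor for R-spondins that marks stem cells of the skin and other epithelia, was at 25.7 CPM in Em, 76.7 in LPN, 30.3 in EPN1 and 35.9 in EPN2 in complete medium. In differentiation medium it was at 0.412, 2.73, 1.63 and 0.840 CPM in the same order. LPN was the highest line in both media, 2.14 times above the next in complete medium and 1.68 times in differentiation medium, and the media did not overlap. LGR6 fell by 4.90 on the log2 scale (SE 0.68, edgeR adjusted p = 0.0132). The decrease was steepest in Em, where 1.60% of the level in complete medium was left, and shallowest in EPN1, where 5.37% was left. The 95% intervals of these folds, 40.2 to 103 in Em and 14.7 to 24.0 in EPN1, do not overlap, but there was 1 library per line and medium and the spread between cultures of a line was not measured. When the differentiation library of EPN1 was left out, the edgeR adjusted p-value was 0.0616 for LGR5 and 0.0579 for LGR6, and both genes passed the threshold in the other 7 fits that left out 1 library. In that same fit the number of genes called fell from 1009 to 70.

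LGR4, the third member of this receptor family and widely expressed in epithelia, moved the other way. It was at 95.3, 69.3, 85.8 and 156 CPM in complete medium (Em, LPN, EPN1 and EPN2) and at 428, 233, 333 and 285 CPM in differentiation medium, with no overlap of the media, as for 8.82% of all genes tested on the higher side. LGR4 rose by 1.65 on the log2 scale (SE 0.29, edgeR adjusted p = 0.0227).

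The TCF and LEF genes code for the proteins through which beta-catenin acts on DNA, and TCF7 and LEF1 are themselves WNT targets. TCF7 was at 15.5 CPM in Em, 22.4 in LPN, 18.9 in EPN1 and 11.7 in EPN2 in complete medium, and at 2.37, 1.48, 2.19 and 2.89 CPM in differentiation medium. LPN was thus the highest line before and the lowest after withdrawal, and EPN2 the reverse. TCF7 fell by 2.94 on the log2 scale (SE 0.30, edgeR adjusted p = 0.00681), with the smallest standard error relative to its size among the 9. It ranked 17 of the 14475 genes by adjusted p-value, and it passed the threshold in all 8 fits that left out 1 library, with adjusted p-values of 0.00774 to 0.0407.

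LEF1 was at 12.4 CPM in Em, 2.58 in LPN, 4.71 in EPN1 and 18.9 in EPN2 in complete medium, a range of 7.31 times between lines. In differentiation medium it was at 0.680, 0.605, 0.384 and 1.03 CPM, a range of 2.67 times. EPN2 was the highest line in both media. LEF1 fell by 3.83 on the log2 scale (SE 0.69, edgeR adjusted p = 0.0234). In LPN, where LEF1 started lowest, 23.4% of the level was left, and in the other lines 5.44% to 8.16%. LEF1 passed the threshold in 3 of the 8 fits that left out 1 library, and its adjusted p-value rose to at most 0.0804, without EPN1 in differentiation medium. It was 0.0518 without Em and 0.0533 without EPN1 in complete medium, and 0.0528 without Em and 0.0734 without LPN in differentiation medium. TCF7L2, the family member most abundant in many epithelia, averaged 90.1 ± 13.6 CPM before and 99.5 ± 28.4 CPM after withdrawal (edgeR log2 fold change 0.14, adjusted p = 0.704).

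**Figure D2:**
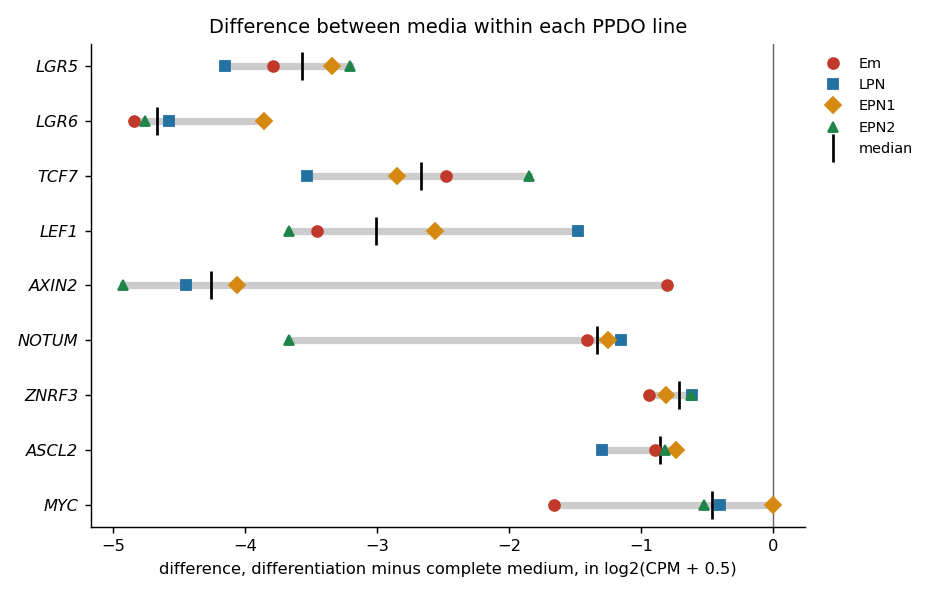
Difference of each gene between differentiation and complete medium within each PPDO line, in log2(CPM + 0.5) on the horizontal axis, with 1 symbol per line, a grey bar over the range of the 4 lines and a black mark at their median. LGR5 and LGR6 lie between -4.85 and -3.21 in all lines, AXIN2 spans -4.92 to -0.80 with Em apart, NOTUM reaches -3.67 in EPN2 alone, and ZNRF3 lies between -0.94 and -0.61. The added 0.5 CPM shrinks differences of low genes such as LGR5 and NOTUM and can change the order of lines. LGR5 differs least in EPN2 on this scale, although its plain ratio was at least 58.7 there and 48.4 in Em.

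All 3 feedback inhibitor genes were lower in 4 of 4 lines, and NOTUM passed the threshold. The difference between media varied between lines with an SD of 1.87 on the log2 scale for AXIN2, 1.20 for NOTUM and 0.16 for ZNRF3, and the SD of AXIN2 was above that of 98.9% of all genes tested. AXIN2 codes for a scaffold of the complex that degrades beta-catenin and is a widely used readout of WNT signalling. It was at 13.0 CPM in Em, 18.6 in LPN, 31.6 in EPN1 and 32.4 in EPN2 in complete medium, and at 7.24, 0.376, 1.42 and 0.583 CPM in differentiation medium. Em was the lowest line before and the highest after withdrawal, when it stood 5.08 times above the next line. In Em 55.8% of the level was left, and in LPN, EPN1 and EPN2 2.02%, 4.50% and 1.80%. Its log2 fold change of -3.31 (SE 0.95) did not pass the threshold (edgeR adjusted p = 0.0745). Blocked on line it was -4.28 (SE 1.02) and passed it, with an adjusted p-value of 0.0412 from edgeR. It also passed when the differentiation library of Em was left out, with a log2 fold change of -4.90 and an adjusted p-value of 0.0195.

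NOTUM codes for a secreted enzyme that inactivates WNT ligands. It was at 1.21 CPM in Em, 1.49 in LPN, 1.01 in EPN1 and 9.11 in EPN2 in complete medium, and at 0.144, 0.396, 0.136 and 0.257 CPM in differentiation medium. EPN2 stood 6.13 times above the next line in complete medium, and after withdrawal all 4 lines were low, with 7, 19, 6 and 11 counts. NOTUM fell by 3.76 on the log2 scale (SE 0.89, edgeR adjusted p = 0.0447). Without EPN2 in complete medium its log2 fold change was -2.39, and this was the only 1 of the 8 fits leaving out a library in which NOTUM passed the threshold (adjusted p = 0.0367). Without any other library the adjusted p-value from edgeR was 0.0634 to 0.126, the highest without EPN1 in differentiation medium. Of the NOTUM counts in differentiation medium, 14.0% came from a row for an extended gene model, and leaving such rows out gave a log2 fold change of -3.96.

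ZNRF3, the ubiquitin ligase that removes Frizzled receptors from the cell surface, was at 36.2 CPM in Em, 18.5 in LPN, 24.6 in EPN1 and 36.5 in EPN2 in complete medium. In differentiation medium it was at 18.6, 11.9, 13.8 and 23.6 CPM. The order of the lines was the same in both media, EPN2, Em, EPN1 and LPN, and between 51.5% and 64.8% of the level was left in each. Its log2 fold change of -0.77 (SE 0.30) did not pass the threshold (edgeR adjusted p = 0.145). The block on line lowered the standard error to 0.12 and the edgeR adjusted p-value to 0.0174. RNF43, the related ligase, averaged 29.7 ± 6.38 CPM before and 20.3 ± 5.31 CPM after withdrawal (edgeR log2 fold change -0.55, adjusted p = 0.182, and 0.0559 with the block).

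The transcription factor genes ASCL2 and MYC had overlapping media. ASCL2, a basic helix-loop-helix factor of intestinal stem cells, was at 0.888 CPM in Em, 2.22 in LPN, 1.01 in EPN1 and 0.587 in EPN2 in complete medium. In differentiation medium it was at 0.247, 0.605, 0.407 and 0.117 CPM. The lines kept the same order in both media, LPN, EPN1, Em and EPN2, and the overlap came from LPN after and EPN2 before withdrawal. With 26 to 91 counts in complete and 5 to 29 in differentiation medium, ASCL2 had few counts. At a log2 fold change of -1.76 (SE 0.61) it did not pass the threshold (edgeR adjusted p = 0.116), and with the line as a block it was -1.80 (SE 0.32, adjusted p = 0.0220).

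MYC, which drives cell growth and is a WNT target in the intestine, was at 225 CPM in Em, 119.7 in LPN, 90.4 in EPN1 and 133 in EPN2 in complete medium. In differentiation medium it was at 70.9, 90.8, 90.4 and 92.4 CPM. Em was the highest line before and the lowest after withdrawal, and the ratio of complete to differentiation medium was 3.17 in Em (95% interval on counts 3.05 to 3.30) and 1.00 in EPN1 (0.957 to 1.05). The log2 fold change of MYC was -0.72 (SE 0.27, edgeR adjusted p = 0.134), and with the line as a block the adjusted p-value was 0.154. MYC was the only 1 of the 9 that did not pass the threshold in either fit. Without Em in complete medium its log2 fold change was -0.39.

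With the line as a block, 8 of the 9 genes passed the threshold in edgeR, where 19.9% of all genes tested were called and 10.4% were called lower. DESeq2 called 6 of the 9 without the block, where 9.36% of all genes with an adjusted p-value were called lower, and 8 with it, where 16.2% were. All 9 had an unadjusted p-value under 0.05 in edgeR, as did 27.3% of all genes tested.

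Calls depended on single libraries, whereas all 9 genes stayed lower in every fit that left a library or a line out. Without the complete library of Em, LPN, EPN1 or EPN2, 3, 4, 3 and 5 of the 9 passed the threshold, where 2.01%, 0.813%, 0.751% and 4.93% of all genes were called lower. Without the differentiation library of the same lines, 4, 3, 1 and 4 passed, against 2.08%, 0.705%, 0.318% and 3.33%. Without both libraries of Em or EPN2, 3 and 4 passed, against 0.71% and 4.78%, and without both of LPN or EPN1 none did, against 0.0207% and 0% of all genes. With the line as a block, leaving out Em, LPN, EPN1 or EPN2 gave 6, 1, 0 and 7 of the 9, against 6.14%, 0.0829%, 0.0206% and 10.5%. LPN and EPN1 were thus the lines whose removal ended most calls, among all genes as among the 9.

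**Figure D3:**
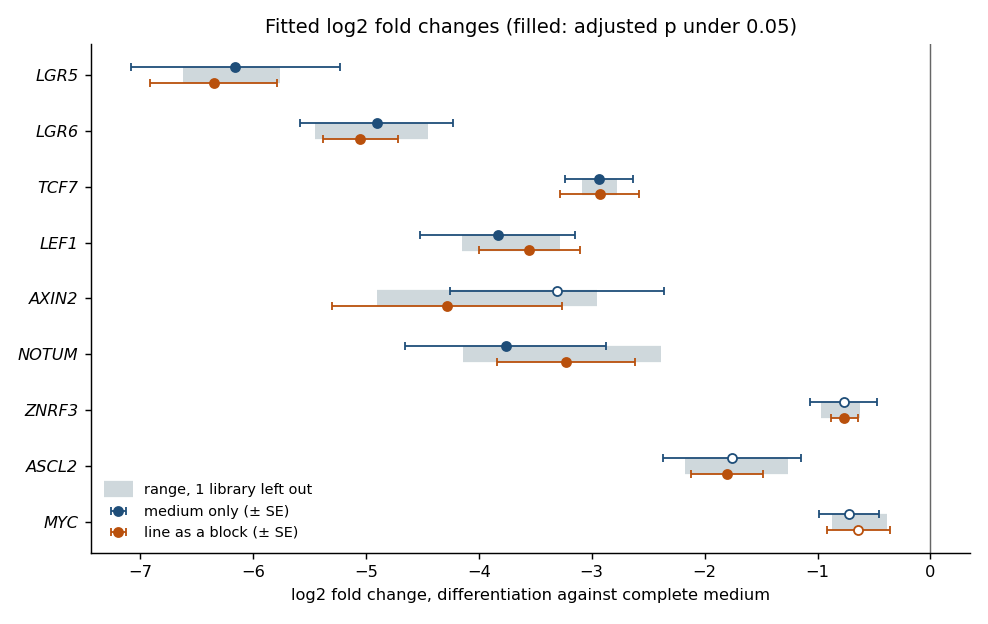
Fitted log2 fold change of each gene on the horizontal axis, with the medium as the only term (blue) and with the line as a block (orange), bars for ± SE, filled circles for an adjusted p-value under 0.05 and grey bands for the range over the 8 fits that leave out 1 library. All values are below 0, AXIN2, ZNRF3 and ASCL2 are filled only with the block, MYC in neither fit, and the grey bands are widest for AXIN2 (-4.90 to -2.95) and NOTUM (-4.14 to -2.39).

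The lines had unequal levels of these genes before withdrawal, without passing a test. In complete medium, LPN was the highest line for LGR5, LGR6, TCF7 and ASCL2, EPN2 for AXIN2, LEF1, NOTUM and ZNRF3, and Em for MYC. The highest line exceeded the lowest by 1.90 times for TCF7, 1.97 for ZNRF3, 2.48 for MYC, 2.49 for AXIN2, 2.77 for LGR5 and 2.98 for LGR6, and by 3.77 for ASCL2, 7.31 for LEF1 and 9.02 for NOTUM. A test of the line term over both media, in the edgeR fit with the line as a block, called none of the 9 genes, against 5.14% of all genes tested. It takes both media together and can miss differences where the order of the lines changes between media, as for TCF7, AXIN2 and MYC. Before adjustment, 3 of the 9 were under 0.05, as were 28.2% of all genes tested. They were ZNRF3, LGR6 and ASCL2, with edgeR adjusted p-values of 0.0657, 0.105 and 0.117. DESeq2 was not run on the line term. These 3 genes kept the highest line in both media. Pairs of neighbouring lines were not tested, and the order of the lines is a description.

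Other genes of the pathway were taken from lists chosen by name. Of 18 other WNT target genes, 16 were in the table, 11 were tested, 7 of these were lower and 1 passed the threshold. That gene was CCND1, which codes for cyclin D1 and fell by 1.52 on the log2 scale (SE 0.34, edgeR adjusted p = 0.0399). It fell least in Em, from 227 to 175 CPM, and in LPN, EPN1 and EPN2 from 422, 314 and 683 CPM to 110, 146 and 144 CPM. The median log2 fold change of the 11 was -0.27. Those with the largest other values were EPHB3 (0.93, adjusted p = 0.342), APCDD1 (-0.86, adjusted p = 0.206), EPHB2 (0.80, adjusted p = 0.737) and BAMBI (0.76, adjusted p = 0.515), none of which passed the threshold in edgeR. APCDD1, a membrane inhibitor of WNT signalling, was lower in 4 of 4 lines and had an adjusted p-value of 0.0237 with the block.

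Of 12 other stem and progenitor genes, 10 were tested and 1 passed the threshold, with a median log2 fold change of -0.69. MSI1, an RNA-binding protein of neural and intestinal progenitors, went from 1.95, 2.83, 1.66 and 5.58 CPM in complete medium (Em, LPN, EPN1 and EPN2) to 0.289, 0.897, 0.475 and 0.583 CPM (edgeR log2 fold change -2.41, SE 0.53, adjusted p = 0.0394). PROM1, AGR2 and LRIG1 had log2 fold changes of -1.95, -0.87 and -0.93 and were lower in 4 of 4 lines, with adjusted p-values from edgeR of 0.137, 0.139 and 0.153. With the line as a block, PROM1 (adjusted p = 0.0447) and LRIG1 (0.0324) passed the threshold and AGR2 (0.0625) did not. OLFM4, which marks intestinal stem cells in humans but also responds to other signals, had the opposite sign to LGR5. It went from 108, 2.31 and 3.70 CPM in Em, LPN and EPN1 to 5086, 77.5 and 226 CPM, and it was listed at 0 in both media in EPN2. Its log2 fold change was 5.56 (SE 2.97, edgeR adjusted p = 0.262) and it passed the threshold with the line as a block (adjusted p = 0.00658).

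No gene of the list that carries the WNT signal was called lower. Of 23 core genes of canonical signalling, 21 were tested, none fell past the threshold and 2 rose, LGR4 as given above and TLE1. TLE1, a co-repressor that binds TCF and LEF proteins, went from 38.9 ± 12.6 to 123 ± 28.3 CPM and rose by 1.66 on the log2 scale (SE 0.26, edgeR adjusted p = 0.0179). The largest other values of the list were those of the co-repressor genes TLE4 (0.88, adjusted p = 0.0742) and TLE3 (-0.67). With the line as a block, 4 core genes were called higher and none lower in edgeR, namely LGR4, TLE1, TLE4 (adjusted p = 0.0145) and the kinase gene GSK3A (adjusted p = 0.0422). CTNNB1, which codes for beta-catenin, averaged 552 ± 55.6 CPM before and 711 ± 119 CPM after withdrawal (edgeR log2 fold change 0.36, adjusted p = 0.184). The median of the 21 was 0.14.

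Among the MYC network genes, which code for partners and antagonists of MYC, 9 were tested and 1 passed the threshold. MXD4, an antagonist that competes for the partner MAX, went from 83.9 ± 15.3 to 150.5 ± 15.8 CPM and rose by 0.84 on the log2 scale (SE 0.15, edgeR adjusted p = 0.0243). MXD1 was at 72.3 ± 22.3 and 182 ± 161 CPM (edgeR log2 fold change 1.33, adjusted p = 0.161) and MXI1 at 59.8 ± 19.8 and 32.6 ± 12.1 CPM (-0.88, adjusted p = 0.123). Of 10 tested MYC target genes of ribosome synthesis and growth, none passed the threshold in edgeR with the medium only, and their median log2 fold change was 0.06. The largest values were those of ODC1 (1.15, adjusted p = 0.252) and NPM1 (-0.64, adjusted p = 0.0732), and NPM1 was lower in 4 of 4 lines and had an adjusted p-value of 0.0174 with the block. Of the 5 genes called in these lists, LGR4 and TLE1 each passed the threshold in 4 of the 8 edgeR fits that left out 1 library, CCND1 and MXD4 each in 2 and MSI1 in 0. None of the 5 passed without the complete library of LPN or EPN1, or without the differentiation library of EPN1. MSI1 also missed it without -ext rows, and MSI1 and CCND1 both missed it without a filter on low counts.

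**Figure D4:**
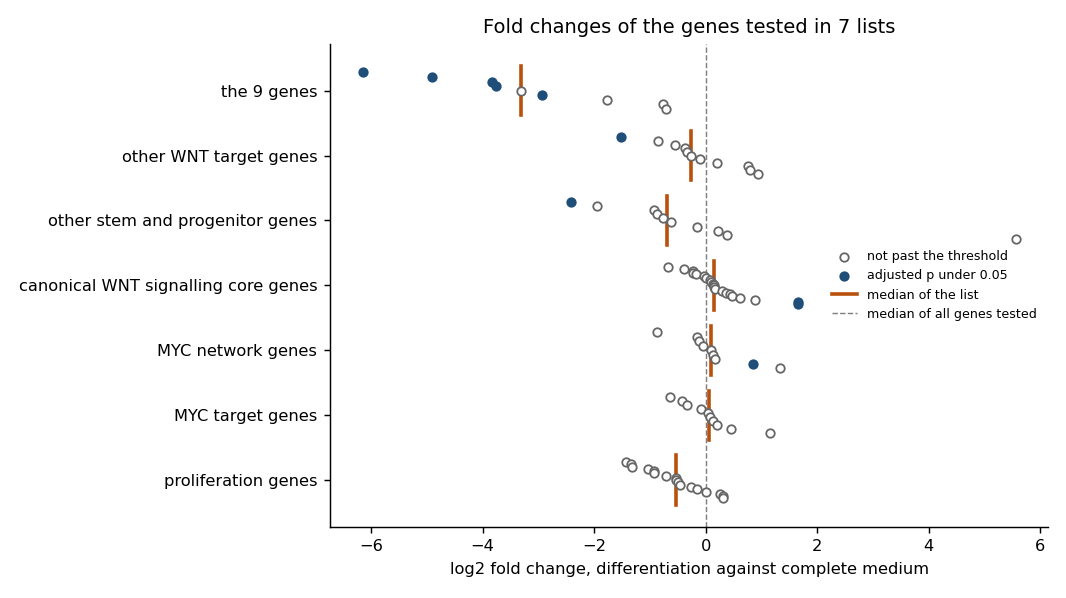
Log2 fold change of each gene tested in 7 lists on the horizontal axis, with 1 point per gene, filled where the adjusted p-value is under 0.05, an orange bar at the median of each list and a dashed line at the median of all genes tested (0.01). The 9 WNT target and stem cell genes have a median of -3.31, the other WNT targets -0.27, the other stem and progenitor genes -0.69, the WNT core genes 0.14, the MYC network genes 0.09, the MYC targets 0.06 and the proliferation genes -0.53.

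Most proliferation genes were lower without passing the threshold. Of 17 proliferation genes tested, 14 were lower and none passed it in edgeR, and 8 passed it with the line as a block, all lower. The largest log2 fold changes were those of BUB1 (-1.42, adjusted p = 0.0866), CDK1 (-1.34, adjusted p = 0.149), CCNB1 (-1.32, adjusted p = 0.177) and TOP2A (-1.04, adjusted p = 0.271), all genes of mitosis that were lower in 4 of 4 lines. The replication genes PCNA (0.26) and MCM7 (0.31) and the mitosis gene AURKB (0.31) were higher in 4 of 4 lines. The 14 include MCM5, which was close to unchanged (-0.0024) and lower in 1 line. The summed level of the list was 518 to 1117 CPM in complete and 303 to 889 CPM in differentiation medium. In bulk libraries, fewer cells that express a gene and less of its RNA per cell cannot be told apart, and the part of proliferation in the changes of the 9 genes was not tested.

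Of the basal epithelial markers, 8 were tested and 3 fell past the threshold, namely the hemidesmosome and basement membrane genes ITGB4 (log2 fold change -1.86, adjusted p = 0.0283 from edgeR), ITGA6 (-1.80, adjusted p = 0.0377) and COL17A1 (-1.56, adjusted p = 0.0495). The transcription factor TP63 and the keratin KRT5, which define basal cells, were higher in 3 and in 4 of the lines, with log2 fold changes of 0.64 (adjusted p = 0.710) and 0.50 (adjusted p = 0.880). The summed level of the list was 3500 to 16207 CPM in complete and 3085 to 14932 CPM in differentiation medium. KRT5 differed widely between lines in complete medium, at 4.50 CPM in Em, 4357 in LPN, 306 in EPN1 and 7648 in EPN2. LPN had the most LGR6 in both media, and a relation between LGR6 and KRT5 was not tested.

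None of the stromal, endothelial, immune, acinar and endocrine markers tested passed the threshold with the medium only. Of the markers found, only 3 of 8 stromal, 2 of 7 acinar and 2 of 8 endocrine genes were tested. The endocrine genes GCG, INS and SST were not tested. In Em, GCG went from 2.01 to 17.2 CPM and INS from a listed 0 to 68 counts. Both were listed at 0 in both media in the other lines. SST went from a listed 0 to 0.309 CPM in Em and from 0.339 CPM to a listed 0 in EPN2. In LPN and EPN1 it was at 0.0244 and 0.0240 CPM in complete medium, below the limit of 3 counts, and listed at 0 in differentiation medium. The stromal markers summed to 22.3 to 73.0 CPM in complete and 2.31 to 50.8 CPM in differentiation medium, of which the mesenchymal filament gene VIM made up most in complete medium, at 21.5 to 66.7 CPM. PDGFRB, a pericyte and fibroblast receptor, went from 2.73 ± 1.85 to 0.383 ± 0.349 CPM and passed the threshold with the block only (adjusted p = 0.0160 from edgeR). Collagen genes of the same list went the other way in some lines, COL3A1 from 0.0217 to 5.03 CPM in Em and from 0.0240 to 6.06 CPM in EPN1, and COL1A2 from a listed 0 to 1.75 CPM in Em, and neither was tested. Of the endothelial markers, CDH5 had at most 1 count in any library, whereas KDR averaged 11.7 ± 4.27 and 17.2 ± 13.0 CPM and PECAM1 13.7 ± 3.96 and 10.5 ± 2.00 CPM. TIE1, an endothelial receptor, averaged 4.85 ± 1.58 and 2.01 ± 0.383 CPM and passed the threshold with the block only (log2 fold change -1.23, adjusted p = 0.0462 from edgeR). The T cell markers CD3E, CD3D and CD2 and the Schwann cell markers CDH19 and SOX10 had at most 3 counts in any library, and the acinar markers CPB1, PNLIP and PTF1A had none. CTRC, a digestive enzyme gene of the acinar list, was higher in 4 of 4 lines, at 141 ± 13.5 and 264 ± 78.5 CPM (edgeR log2 fold change 0.90, adjusted p = 0.0602). In EPN2 it was nearly unchanged, at 145 and 148 CPM. The immune list summed to 1170 to 1849 CPM in complete and 1041 to 1214 CPM in differentiation medium, nearly all of it from CD79A, which was at 1441 ± 273 and 1074 ± 54.3 CPM. CD79A was at 1021 CPM or more in every library, whether its row collects reads of another transcript was not tested, and its level is not read here as a number of B cells. The part of these cell types in the changes of the 9 genes was not tested.

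The genes whose pattern over the 8 libraries was most like the mean of the 9 were found by Pearson correlation of log2 CPM among 11548 genes with a symbol and at least 1 CPM on average. Closest was DLL1 (r = 0.996), a ligand of NOTCH receptors, at 26.7 to 39.9 CPM in complete and 6.58 to 8.25 CPM in differentiation medium. It was followed by the cytokine gene MIF (r = 0.993), the RAS and MAPK inhibitor gene SPRED1 (r = 0.989), PFDN4 (r = 0.986) and the glycolysis gene PGAM1 (r = 0.985), and then by UCK2, CCDC88A, FMNL3, KYAT1 and NDUFC2 (r = 0.976 to 0.982). All 10 were lower in differentiation medium and past the threshold in edgeR. This follows from how they were picked, as the mean of the 9 was itself lower in differentiation medium. Among the 9 themselves, r with their mean was highest for LGR5 (0.964), TCF7 (0.945) and LGR6 (0.942) and lowest for ASCL2 (0.702), MYC (0.751) and ZNRF3 (0.752), and each gene is part of that mean. After centring each medium on its mean, the genes closest to the mean of the 9 were PSMA4, ATAD3A, RNPEP, FARS2 and HARS1 (r = 0.981 to 0.987), and r within the 9 ranged from -0.44 for TCF7 to 0.73 for LEF1. These correlations describe 8 libraries that share 4 lines.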

How the data were processed

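Poly(A) RNA of 4 PPDO lines in 2 media was sequenced. The authors ran salmon within nf-core on a pig genome with their own annotation, and the deposited table holds estimated counts in 56060 rows. The submitters' processing notes name the genome builds Sscrofa11.1 and GRCh38. Of the values above 0, 78.6% are whole, and it is open whether they were scaled by gene length. Rows with the suffixes -iso and -ext (25770 rows with -ext, 2.58% of counts) were summed per gene and rounded, and 8 reporter rows (0.00142% of counts) were left out. This gave 30282 genes, 5612 of them with no count. Gene positions are from RefSeq. Media follow the sample titles and column names. The labels' treatment field names endocrine induction media for all 8 samples, and lines follow the column names. Replicate numbers of the labels were not matched to columns.

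Tests across genes used edgeR 4.0.16 in R 4.3.3 (TMM, default expression filter, quasi-likelihood test, medium only), and DESeq2 1.42.0 was an alternative. The step was tested on simulated data. Differences within lines used log2(CPM + 0.5), which understates changes of low genes. The same 4 lines were in both media, and an alternative fit took the line as replicate block. Around the mean of their medium, the 2 libraries of a line correlated at 0.401 to 0.658 and those of different lines at -0.491 to 0.265. Other alternatives were other size factors, no filter, no -ext rows, each library or line left out and other pseudocounts. Leaving out a line with the block, and the test of the line term, were added after the data were seen. Columns of fold changes or p-values were not used. Named are the 9 genes, list genes past the threshold, otherwise up to 4 of a list with the largest fold change, and the 10 and 5 genes most alike. TCF7L2, RNF43 and CTNNB1, as relatives of the 9 or as the pathway's effector, and marker genes were named after their values were seen. Members and lists were chosen with earlier results of these data known.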

Additional observations from a re-analysis of the deposited data

Results flagged for a closer look

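In 27 groups of 4 values (the 9 genes in each medium, and their differences within lines), 4 values lay farther from the other three than Dixon's criterion allows at the 95% level, and chance gives about 1 in 20 groups. AXIN2 in differentiation medium was at 7.24 CPM in Em, against 0.376 to 1.42 CPM in the other lines. NOTUM in complete medium was at 9.11 CPM in EPN2, against 1.01 to 1.49 CPM. The difference of NOTUM between media was -3.67 on the log2(CPM + 0.5) scale in EPN2, against -1.41 to -1.15 in the other lines. The added 0.5 CPM shrinks the differences of those lines more, and the criterion was not applied to plain ratios. The 95% interval on counts of the plain ratio was 19.6 to 71.6 in EPN2. It overlapped those of Em (3.82 to 21.9) and EPN1 (3.15 to 21.4) but not that of LPN (2.21 to 6.64). MYC in differentiation medium was at 70.9 CPM in Em, against 90.4 to 92.4 CPM.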

How the results depend on the processing

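With edgeR and the line as replicate block, 8 of the 9 genes, 2884 of all genes and 20 genes of the other 6 pathway lists passed the threshold, against 5, 1009 and 5 without it. Log2 fold changes that passed only there were -4.28 for AXIN2, -1.80 for ASCL2 and -0.76 for ZNRF3. The block changed no other call of the 9 genes. DESeq2 without the block called 3026 genes, 10 of the other lists, and also AXIN2 (-3.29) and ASCL2 (-1.75), and gave NOTUM no adjusted p-value. DESeq2 with the block called 5597 genes, 8 of the 9 and 35 of the other lists, with -4.38 for AXIN2, -1.78 for ASCL2 and -0.74 for ZNRF3. Without a filter on low counts, 506 genes and 3 of the other lists were called, and NOTUM (-3.77) was not. Leaving out 1 library or both libraries of a line, with or without the block, gave 0 to 7 of the 9 genes, 0 to 2989 of all genes and 0 to 21 genes of the other lists, whose median ranged from -0.132 to 0.0119. The ranges of the log2 fold change were -6.71 to -5.76 for LGR5, -5.45 to -4.45 for LGR6, -5.23 to -2.81 for AXIN2, -4.15 to -3.28 for LEF1, -3.23 to -2.61 for TCF7, -4.38 to -2.39 for NOTUM, -2.18 to -1.26 for ASCL2, -0.97 to -0.62 for ZNRF3 and -0.91 to -0.28 for MYC, whose smallest values were those without both libraries of Em. The median difference within lines was -5.27 for LGR5 and -1.59 for ASCL2 with a pseudocount of 0.1 CPM, and -2.80 and -0.56 with 1 CPM. In all 206 fits with a value, the 9 genes were lower in differentiation medium. Counts of under 30 in differentiation medium limit the folds of LGR5, NOTUM and ASCL2 in every line. They also limit those of LGR6 in Em, AXIN2 in LPN and EPN2, and LEF1 in LPN and EPN1. The causes were not tested.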

Other observations

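A pair of WNT target genes that did not pass the expression filter were detected mainly in 1 line, and both were picked out after their values were seen. DKK4, a secreted inhibitor of WNT receptors, was at 4.99 CPM in EPN2 in complete medium and at no more than 0.0233 CPM in the other 7 libraries, so that it was high in the same library as NOTUM. SP5, a transcription factor gene downstream of beta-catenin, was at 4.66 CPM in Em in complete medium, at 0.171, 0.529 and 0.203 CPM in LPN, EPN1 and EPN2, and at 0.309 CPM or less in differentiation medium. Neither gene was tested, and each value comes from 1 library.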
